A study of Mus musculus with 12 samples.

Results

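Small nucleolar RNA (snoRNA) genes were taken as the genes whose single platform symbol starts with Snord (box C/D family) or Snora (box H/ACA family) followed by a digit. The symbols marked 51 of the 19938 named genes of the array, 31 of them box C/D and 20 box H/ACA, and the brightest transcript cluster over all 12 arrays stood for each gene. RNA came from CD8+CD28low T cells of C57Bl/6 mice, labelled regulatory, whose surface has little CD28, a receptor for costimulation. The cells were Aire-deficient (labelled AIRE ko, here KO) or wild type (WT), and were either activated in a 96 h culture that held an antibody against CD3 and allogenic antigen-presenting cells, or native, meaning freshly isolated. Activated KO, activated WT, native KO and native WT cells had 3 arrays each, called biological replicates in the titles. The labels do not give the Aire allele, the age or number of the mice or the method of sorting, so p-values measure the spread between these arrays. Values are deposited log2 expression levels from an Affymetrix whole-transcript array, and a difference of 1 on that scale is a doubling.

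Box C/D snoRNAs guide 2'-O-methylation of ribosomal RNA with the proteins fibrillarin, Nop56, Nop58 and Snu13. Box H/ACA snoRNAs guide pseudouridylation with dyskerin (Dkc1), Gar1, Nhp2 and Nop10, and a few members of either family take part in cutting the precursor of ribosomal RNA. In mammals most of them lie in introns of other genes, many of which encode ribosomal proteins or translation factors, and are released from the spliced intron by debranching and trimming of the ends. T cells that are activated through their antigen receptor enlarge their nucleoli and make more ribosomes. All 51 members were found in the RefSeq gene table. In it 50 lay inside another gene, the exception being Snord118, and the 40 containing genes are called hosts here. Of the members, 21 lay in 16 ribosomal protein genes, 16 in 14 other protein-coding genes and 13 in 10 noncoding genes. Box C/D members were 45 to 148 nt long in the annotation (median 68) and box H/ACA members 61 to 205 nt (median 125). The host was measured by a row of its own for 27 members (23 hosts).

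Many snoRNA hosts belong to the genes whose transcripts start with a run of pyrimidines. Sequences of the members themselves are not shown here. The windows below, of 30 bases before and 10 bases from the annotated start, are from RefSeq on GRCm38.p6, written 5′ to 3′ on the gene's strand. They belong to the 5 hosts in which the members of a pair changed unequally (described further on). Capitals mark an unbroken run of C and T of at least 5 bases that includes the start base.
Ncl (chr1:86359446-86359485, minus strand): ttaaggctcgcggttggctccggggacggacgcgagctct
Snhg12 (chr4:132308648-132308687, plus strand): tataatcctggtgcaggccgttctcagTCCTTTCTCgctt
Rack1 (chr11:48800330-48800369, plus strand): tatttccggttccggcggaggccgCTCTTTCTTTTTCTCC
Rps3 (chr7:99483700-99483739, minus strand): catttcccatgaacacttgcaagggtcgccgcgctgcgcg
2410006H16Rik (chr11:62602847-62602886, plus strand): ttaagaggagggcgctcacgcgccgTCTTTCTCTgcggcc
Such a run, of 9 bases or more in each case, was present in Snhg12, Rack1 and 2410006H16Rik and not in Ncl or Rps3. Over all hosts with an entry a run of at least 5 bases was present in 9 of 30 (30%), against 2690 of 27025 genes with an entry (9.95%). The run was searched on the gene's strand alone, and its absence says only that no such run includes the annotated start base.

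Aire itself was at background on all 12 arrays (5.55 to 5.92), so its level checks no genotype label. All 7 CD8 T cell genes (such as Cd3e and Cd8a) lay above background, with a mean level per array of 10.49 to 11.73 in activated KO, 11.33 to 11.70 in activated WT, 11.85 to 11.91 in native KO and 11.83 to 11.91 in native WT cells. Background was set on each array at the 95th percentile of its 1027 olfactory receptor genes, and a gene counts as at background in a group when none of the 3 arrays exceeded it. One of the 7 is Cd28, the receptor that is low on these cells by their label. Its transcript stood at 10.99, 11.25 and 9.98 in activated KO, 11.06, 11.04 and 10.80 in activated WT, 11.03, 11.97 and 11.58 in native KO and 11.36, 11.94 and 11.21 in native WT cells, above background on every array, which does not check the CD28low label. All 9 neutrophil genes were at background in both activated groups, while their mean level per array was 6.3 to 8.91 in native KO and 5.57 to 7.22 in native WT cells. Of 9 macrophage and dendritic cell genes, 8 were at background in activated KO and 9 in activated WT cells, and 7 in each native group, while of 4 measured B cell genes 3 were at background in every group but native KO, where 2 were. Of 3 CD4 T cell genes 2 were at background in activated and 3 in native cells. The 1 measured erythroid gene was at background in activated cells and lay at 7.58 to 8.24 in native KO and 6.64 to 8.42 in native WT cells. Activated KO array 3 stood apart: its olfactory receptor percentile was 7.31, against 6.12 to 6.72 on the other 11 arrays, and 29 of the 51 members exceeded it there, against 41 to 50 on the others. The next highest percentile, 6.72, was that of activated WT array 2. The part of the other cells and of these arrays in the results below was not tested beyond the fits without the arrays. As the samples are bulk RNA, fewer cells of a type and less RNA per cell cannot be told apart.

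The first comparison asked how the snoRNA genes differed between activated and native KO cells. Of 51 members 42 were lower in activated KO cells and 0 higher at an adjusted p under 0.05 (limma, adjusted over all 19938 genes), where 11.4% of all genes were lower and 8.72% higher (20.1% in either direction). They were 23 of 31 box C/D members and 19 of 20 box H/ACA members. The median difference was -0.96 for box C/D and -1.19 for box H/ACA members, against 0.02 over all genes, and 13 box C/D and 11 box H/ACA members fell by more than 1. All 3 activated KO arrays lay below all 3 native KO arrays for 46 members, which 17% of all genes did. With activated KO array 3 and activated WT array 2 both left out, 42 members were again lower. Of all genes 2677 were then lower, against 2263 with all arrays.

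In WT cells 25 members were lower after activation and 1 was higher, where 10.9% of all genes were lower and 9.72% higher (20.6% in either direction). The 25 were 13 box C/D and 12 box H/ACA members. Median differences were -0.56 and -0.87, against -0.02 over all genes, and 36 members had all 3 activated WT arrays below all 3 native WT arrays, against 23.4% of all genes. The counts without the same 2 arrays were again 25 and 1. Without activated KO array 3 alone 34 were lower (19 box H/ACA members in place of 12). Without native WT array 2 only 21 were (9 box C/D calls in place of 14, the higher one included). Calls over all genes moved too: 2170 genes were lower with all arrays and 3205 without the 2 arrays. There were 3219 without activated KO array 3 alone and 1455 without native WT array 2. All 25 members lower in WT cells were also lower in KO cells (100% of the WT calls and 59.5% of the KO calls), 17 were called in KO cells only, and 8 were called in neither genotype. Leaving out some 1 array ended the KO calls of Snora2b, Snora31, Snora52, Snord8, Snord35b, Snord38a, Snord42a, Snord42b, Snord73a and Snord96a, with adjusted p up to 0.165 without native KO array 1 (Snora2b). It ended the WT calls of Snora31, Snord8, Snord14e, Snord49a, Snord52, Snord82 and Snord118, with adjusted p up to 0.155 without native WT array 3 (Snord82). Across the 51 members the KO and WT differences had a Pearson correlation of 0.94 and a Spearman correlation of 0.88, a description across genes that share the arrays. Lengths bore little relation to the differences (Spearman -0.09 in KO and -0.15 in WT cells).

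**Figure D1:**
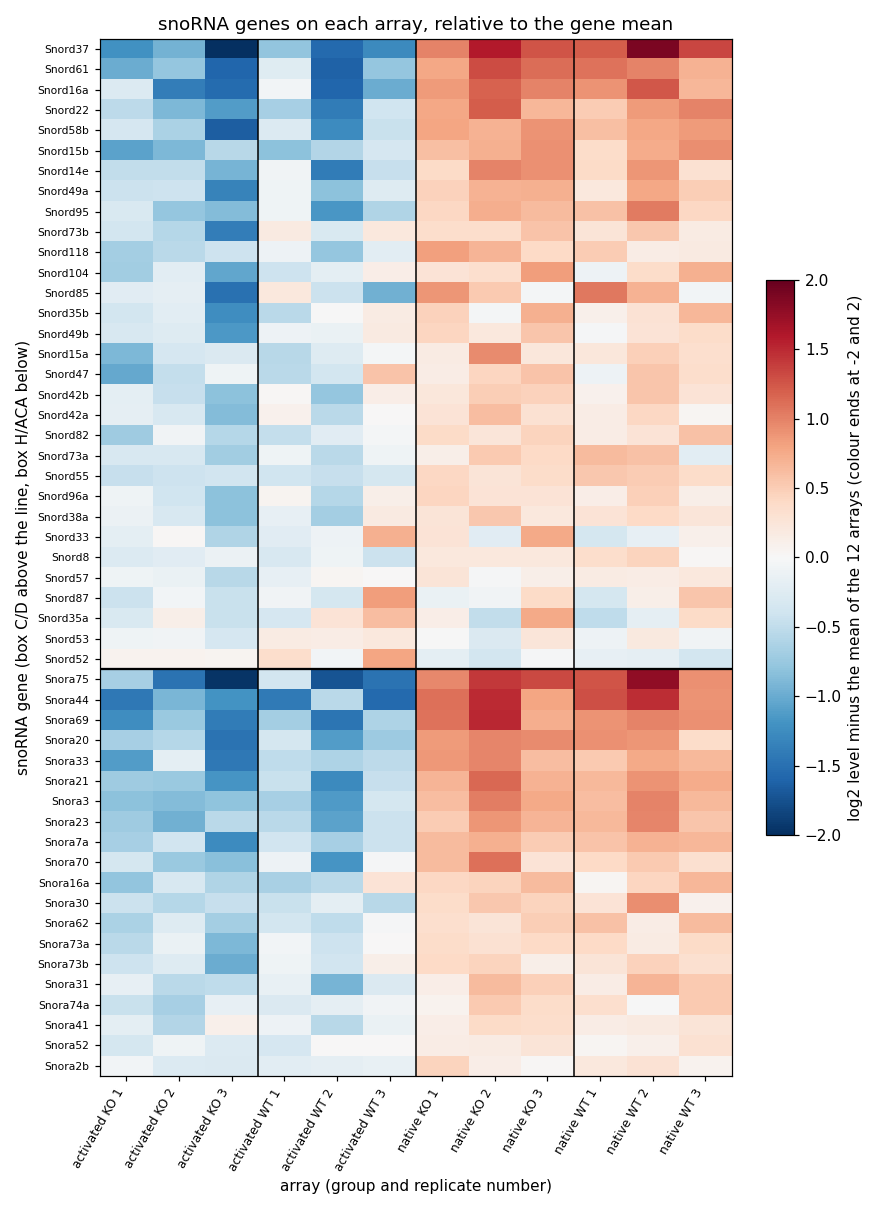
Each cell is the log2 level of 1 snoRNA gene (rows, box C/D above the line and box H/ACA below, ordered by the difference in KO cells) on 1 array (columns), minus the gene's mean over the 12 arrays; colours end at -2 and 2. The 6 activated arrays, on the left, are mostly below the gene mean and the 6 native arrays above it, with the deepest values in rows such as Snord37 and Snora75 and pale, mixed rows at the bottom of the box C/D block.

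Snord37, a box C/D snoRNA in an intron of the elongation factor gene Eef2, had the largest box C/D fall. It stood at 7.30, 7.56 and 6.01 on the activated KO arrays, against 9.50, 10.10 and 9.76 on the native KO arrays. In WT cells it stood at 7.72, 6.96 and 7.23 on the activated arrays, against 9.73, 10.40 and 9.85 on the native arrays. Every activated array lay below every native array by more than 1 unit. The log2 difference was -2.83 ± 0.36 (SE) in KO cells, or 7.10-fold lower (adjusted p = 0.000196), and -2.69 ± 0.36 in WT cells, or 6.45-fold lower (adjusted p = 0.000259). On activated KO array 3 Snord37 lay under that array's background limit of 7.31. Without that array the KO difference was -2.35. Among the members described below, Snord22, Snord55, Snord58b, Snora20, Snora33 and Snora44 also lay under the limit on that array, so the sizes of their KO falls are uncertain.

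The next largest box C/D falls were those of Snord61, Snord16a, Snord22 and Snord58b. Snord61, in the gene of the RNA-binding protein Rbmx, was at background on all activated KO arrays (5.73, 5.96 and 5.14, against 7.49, 8.04 and 7.84 in native KO cells). With its activated level set to the background limit, the KO difference was -1.22 or further from 0, where the fit gave -2.18. In WT cells Snord61 stood at 6.49, 5.11 and 5.95 on the activated arrays, against 7.81, 7.71 and 7.42 on the native ones, and fell by 1.80 ± 0.31 (adjusted p = 0.00154). Snord16a, in the ribosomal protein gene Rpl4, fell 4.21-fold in KO and 3.52-fold in WT cells. Its levels were 10.63, 9.51 and 9.36 in activated KO cells, against 11.75, 12.08 and 11.90 in native KO cells, and the groups did not overlap in WT cells either. Snord22, in the noncoding gene Snhg1 and needed for small-subunit RNA in Xenopus, fell 3.31-fold in KO and 3.03-fold in WT cells. Snord58b fell by 1.67 ± 0.31 in KO cells (adjusted p = 0.00263) and by 1.39 ± 0.31 in WT cells (adjusted p = 0.00737). Its gene is annotated in Rpl17, but the row used may lie elsewhere in the genome.

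Snord55 showed the tightest levels of the members that passed in both genotypes by its standard error. It stood at 6.80, 6.83 and 6.88 in activated KO cells, against 7.67, 7.52 and 7.63 in native KO cells. In activated WT cells it stood at 6.85, 6.80 and 6.90, against 7.79, 7.77 and 7.62 in native WT cells. The fall was 1.70-fold in KO and 1.84-fold in WT cells, with adjusted p of 0.00015 and 4.9e-05.

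Snord14e and Snord118 were the other box C/D members with a known part in cutting the ribosomal RNA precursor. Snord14e, a copy of U14 in the chaperone gene Hspa8, belongs to a snoRNA needed for small-subunit RNA in yeast. It stood at 8.73, 8.73 and 8.30 in activated KO cells, against 9.61, 10.21 and 10.14 in native KO cells, and fell by 1.4 ± 0.30 (adjusted p = 0.00641). In WT cells it fell by 1.16 ± 0.30 (adjusted p = 0.0174), a call that was lost without native WT array 2 (-0.98, adjusted p = 0.0802). Snord118, or U8, which Xenopus needs for large-subunit RNA, was at background in both activated groups. It stood at 5.34, 5.48 and 5.60 in activated KO cells, against 6.84, 6.70 and 6.42 in native KO cells, so that its fitted difference of -1.18 is bounded only at -0.09. Its WT difference of -0.65 has a bound of 0, and the call was lost without native WT array 1 (adjusted p = 0.113) or activated WT array 2 (adjusted p = 0.0756).

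Some box C/D members did not pass. The pair in the ribosomal protein gene Rpl13a moved little beside its spread: Snord33 differed by -0.52 ± 0.29 in KO and 0.26 ± 0.29 in WT cells, and Snord35a by -0.35 ± 0.33 and 0.29 ± 0.33. Snord33 stood at 7.91, 8.13 and 7.51 in activated KO cells, against 8.38, 7.88 and 8.87 in native KO cells. The activated and native arrays of this pair overlapped in both genotypes. Snord47, the only member inside the growth-arrest transcript Gas5, differed by -0.92 ± 0.30 in KO cells (adjusted p = 0.0527). It passed there without activated KO array 3 (-1.14, adjusted p = 0.0192), and also without activated WT array 1 or 3. The other members called in neither genotype were Snord85 (-1.09 in KO and -0.96 in WT cells), Snord57 (-0.38 and -0.22), Snord87 (-0.37 and 0.03) and Snord53 (-0.14 and 0.17), and the box H/ACA member Snora41 (-0.51 and -0.46). Snord52, the 1 member higher in activated WT cells, was at background in all 4 groups, so no size is given for it, and the call was lost without any 1 of 5 of the 6 WT arrays, adjusted p then being 0.07 to 0.124.

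Among box H/ACA members Snora75, in an intron of the nucleolin gene Ncl, fell most. It stood at 8.97, 8.15 and 7.67 in activated KO cells, against 10.58, 11.04 and 10.95 in native KO cells. Its levels in WT cells were 9.26, 7.89 and 8.15 after activation, against 10.88, 11.40 and 10.55 in the native state. No activated array reached a native one, and the difference was -2.60 ± 0.38 in KO cells, or 6.06-fold lower (adjusted p = 0.000567), and -2.51 ± 0.38 in WT cells, or 5.70-fold lower (adjusted p = 0.000669).

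Snora44, in the noncoding gene Snhg12, stood at 6.49, 6.99 and 6.71 in activated KO cells, against 9.02, 9.40 and 8.71 in native KO cells. It fell 4.96-fold in KO and 5.25-fold in WT cells, with adjusted p of 0.000114 and 7.6e-05. Snora69, in Rpl39, fell 4.72-fold in KO and 3.60-fold in WT cells. It stood at 8.04, 8.55 and 7.88 in activated KO cells, against 10.38, 10.79 and 10.02 in native KO cells. Snora33, in Rps12, differed by -1.73 ± 0.24 in KO and -1.20 ± 0.24 in WT cells, Snora21, in Rpl23, by -1.72 ± 0.22 and -1.49 ± 0.22, and Snora3, in Rpl27a, by -1.63 ± 0.19 and -1.47 ± 0.19. All of these passed in both genotypes with no overlap of activated and native arrays.

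Snora73a and Snora73b, copies of U17, whose yeast counterpart is needed for small-subunit RNA, share the host Snhg3. Snora73a stood at 8.14, 8.53 and 7.77 in activated KO cells, against 9.03, 8.98 and 9.08 in native KO cells, and Snora73b at 8.09, 8.25 and 7.52, against 8.91, 8.96 and 8.62. Both fell by 0.88 in KO cells (adjusted p = 0.0043 and 0.00649). Both differed by -0.46 in WT cells, which did not pass (adjusted p = 0.0935 and 0.117) but did without activated KO array 3 (adjusted p = 0.0228 and 0.0247), and for Snora73a also without activated KO array 2. The smallest box H/ACA falls called in KO cells were those of Snora2b (-0.41 ± 0.13) and Snora52 (-0.42 ± 0.13).

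**Figure D2:**
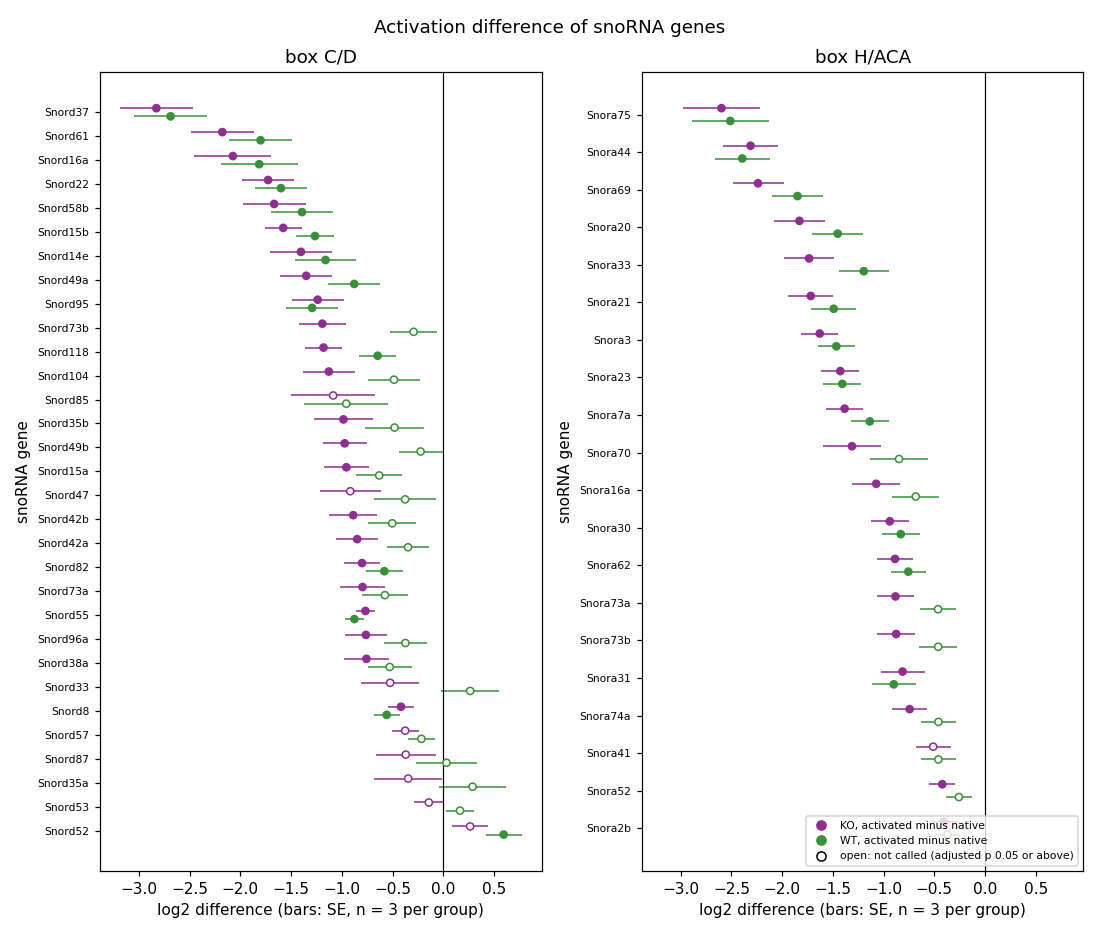
Points are log2 differences, activated minus native, of each snoRNA gene in KO cells (purple, upper point of each row) and WT cells (green, lower point) with SE bars of the limma fit, n = 3 arrays per group; filled points passed an adjusted p of 0.05. Box C/D values run from -2.83 to 0.26 in KO cells and from -2.69 to 0.60 in WT cells, and all 20 box H/ACA values are negative in both genotypes.

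Whether a snoRNA changed with the gene around it was asked of the 27 members whose host was measured. The hosts had a median difference of -0.22 in KO and -0.05 in WT cells, against -0.96 and -0.83 for the members inside them. Of the 23 of these members lower in KO cells, the host was lower too for 5, not called for 17 and higher for 1. In WT cells 15 were lower, and the host was lower for 3, not called for 11 and higher for 1. The 5 in KO cells count Rps3a1 for both Snord73a and Snord73b. Both the 5 and the 3 count Snora30 with Srcap, although the row used for Snora30 may not lie inside Srcap. Counted once each, 5 of the 23 hosts were lower and 1 higher in KO cells, and 3 and 1 in WT cells. Of all genes 11.4% were lower and 8.72% higher in KO cells, and 10.9% and 9.72% in WT cells. Host differences were negative for 16 of the 23 in each genotype. The log2 ratio of member over host was compared between 6 activated and 6 native arrays with a two-sided exact permutation test, adjusted over the 27 pairs. KO and WT arrays were pooled within each state. Those with the same replicate number share an experiment number, which the test ignored, so its p-values may be too small. The ratio was lower in activated cells for 18 pairs and higher for 1. Its difference was negative for 25, and for 15 every activated array lay below every native array. The smallest p the test can give is 0.00216, and the number lower was 17 to 20 when any 1 array, or activated KO array 3 and activated WT array 2 together, were left out. Levels of different genes on the array cannot be compared, so the ratio shows unequal change alone.

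Snora20 and its host Tcp1, a subunit of the cytosolic chaperonin, moved in opposite directions. Tcp1 stood at 11.43, 11.21 and 11.38 in activated KO cells, against 10.62, 10.47 and 10.38 in native KO cells, and rose by 0.85 ± 0.17 (adjusted p = 0.00392). Snora20 stood at 7.54, 7.63 and 6.73 on the same activated arrays, against 9.05, 9.18 and 9.15 on the native ones, and fell by 1.83 ± 0.25 (adjusted p = 0.000345). In WT cells Tcp1 rose by 0.87 ± 0.17 and Snora20 fell by 1.45 ± 0.25. The log2 ratio of Snora20 over Tcp1 differed by -2.5 in activated cells (SD 0.40 over 6 activated and 0.28 over 6 native arrays, exact permutation, adjusted p = 0.0039).

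The difference of the log2 ratio was -2.79 for Snord37 over Eef2, -2.59 for Snora75 over Ncl, -1.86 for Snora23 over the importin gene Ipo7, -1.86 for Snord16a over Rpl4 and -1.27 for Snord14e over Hspa8. Eef2 stood at 12.88, 12.95 and 12.90 in activated KO cells, against 12.85, 12.89 and 12.96 in native KO cells, and Ncl at 11.68, 11.65 and 11.56, against 11.39, 11.69 and 11.45. The levels of both hosts overlapped while those of their snoRNAs did not. All 5 ratios had adjusted p = 0.0039 (exact permutation) and passed without any 1 array. Snord61 over Rbmx, also among the 18, has only a bound, since Snord61 was at background in activated KO cells and did not exceed the limit on 2 of the 3 activated WT arrays. With its activated levels raised to each array's limit the ratio differed by -0.99 or further from 0 (exact permutation, unadjusted p = 0.0281), and the arrays then overlapped. Snora21 and its host Rpl23 both fell, Rpl23 with differences of -0.32 in KO and -0.30 in WT cells, and their ratio differed by -1.29. Snora31 and its host Tpt1, which encodes a translationally controlled protein, also both fell, and the ratio differed by -0.54 (exact permutation, adjusted p = 0.0206). The ratio of Snora31 missed the threshold without the 2 arrays together (adjusted p = 0.0771), as did those of Snord42a and Snord42b over Rpl23a (0.0935 and 0.0857). Pairs in which no unequal change was found include Snord47 with Gas5 (-0.01, adjusted p = 0.972) and Snora2b with Kansl2 (-0.06, adjusted p = 0.629), by the same exact permutation test. Gas5 fell by 0.87 ± 0.23 in KO cells (adjusted p = 0.0198) and differed by -0.40 in WT cells. Snord53 with Wdr43 was the pair in which the ratio rose, by 0.48 (exact permutation, adjusted p = 0.0146). The host Wdr43, a ribosome biogenesis factor, differed by -0.48 ± 0.18 in KO and -0.46 ± 0.18 in WT cells. Neither Snord53 nor Wdr43 was called in either genotype.

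**Figure D3:**
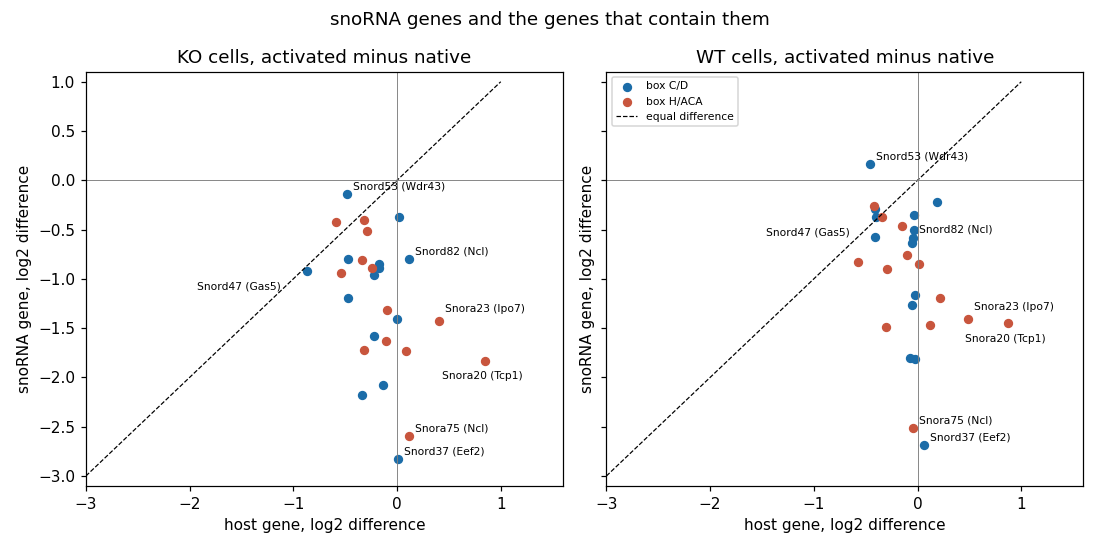
Each point is 1 snoRNA gene, with the log2 difference (activated minus native) of its host on the x axis and its own on the y axis, KO cells on the left and WT cells on the right; the dashed line marks equal differences. Most points lie below the line, and Snora20 lies at a host difference of 0.85 in KO and 0.87 in WT cells.

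In 10 hosts 2 members were measured, both annotated inside the same gene. Whether both come from the same transcript was not tested. In 5 of the 10 pairs the members changed unequally between activated and native cells (exact permutation over 6 and 6 arrays, adjusted over the 10 pairs), with and without any 1 array. The shared experiment numbers were not taken into account here either. In Ncl the log2 ratio of Snora75 over Snord82 differed by -1.86 (adjusted p = 0.00541). Snord82 stood at 10.87, 11.51 and 11.01 in activated KO cells, against 11.96, 11.82 and 12.02 in native KO cells, and fell 1.74-fold, against 6.06-fold for Snora75. The fall of Snord82 in WT cells (0.58 ± 0.18, adjusted p = 0.0388) was lost without native WT array 2 or 3, activated WT array 1 or 2, or any native KO array. In Snhg12 the ratio of Snora44 over Snora16a differed by -1.47 (exact permutation, adjusted p = 0.00541), Snora16a falling by 1.07 ± 0.23 in KO cells and differing by -0.68 ± 0.23 in WT cells. Smaller differences were found for Snord95 over Snord96a in the ribosomal scaffold gene Rack1 (-0.70), Snord15b over Snord15a in Rps3 (-0.63) and Snord49a over Snord49b in 2410006H16Rik (-0.52). By the same exact permutation test the other 5 pairs did not pass, with adjusted p of 0.418 to 0.968. The differences were -0.10 for Snord33 over Snord35a in Rpl13a, -0.10 for Snord42b over Snord42a in Rpl23a and 0.00 for Snora73a over Snora73b in Snhg3. In Rps3a1 the row of Snord73a was at background in both activated groups, so its ratio to Snord73b cannot show whether the pair changed equally, and 1 pair is not described here.

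**Figure D4:**
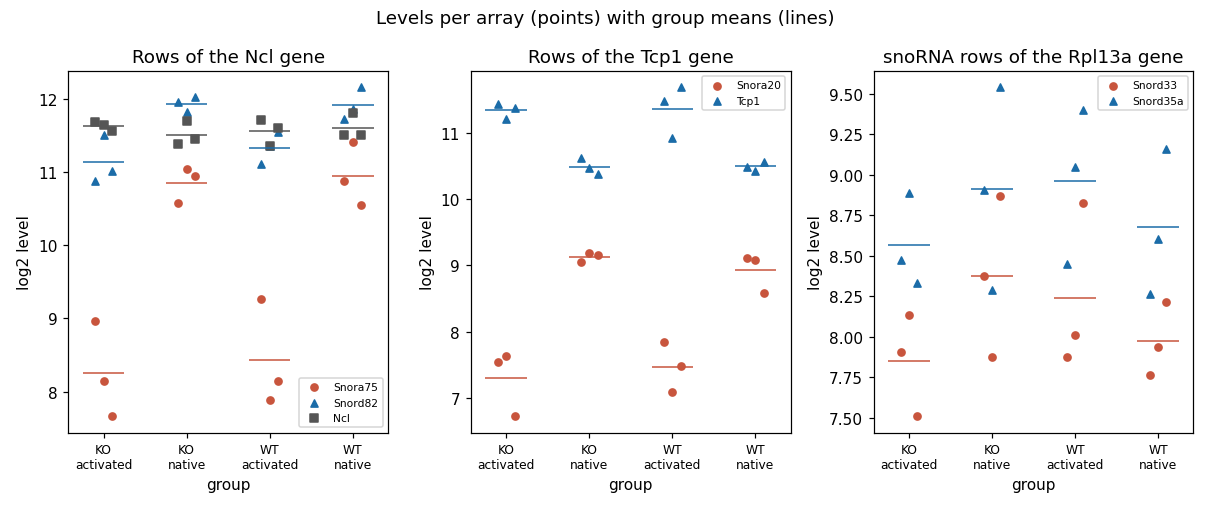
Log2 levels per array (points, shifted sideways for clarity) with group means (lines, n = 3) for the rows of Ncl (Snora75, Snord82 and Ncl itself), of Tcp1 (Snora20 and Tcp1) and for the 2 snoRNAs of Rpl13a (Snord33 and Snord35a); the y axes differ, and levels of different rows are not comparable. Activated Snora75 and Snora20 lie below their native arrays while Ncl stays between 11.36 and 11.81 and Tcp1 lies higher, and the groups overlap for the Rpl13a pair.

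By kind of host, 19 of 21 members in ribosomal protein genes were lower in activated KO cells and 10 in activated WT cells. For other protein-coding hosts the counts were 12 and 10 of 16, and for noncoding hosts 10 and 4 of 13. Medians were -0.98, -1.01 and -0.92 in KO cells and -0.76, -0.93 and -0.46 in WT cells for the 3 kinds in that order. From the list of protein-coding hosts known to hold snoRNAs, 33 were measured; 5 were lower (15.2%) and 2 higher (6.06%) in each genotype, beside 11.4% lower and 8.72% higher of all genes in KO cells and 10.9% and 9.72% in WT cells. Eif4a2, an initiation factor helicase, fell by 1.65 in KO and 1.44 in WT cells, and Rpl12 by 1.69 and 1.35, while Rcc1, the Ran exchange factor, rose by 1.41 and 1.25. Of 8 measured noncoding hosts, Gas5 and Snhg16 (-0.85) were lower in KO cells and 0 passed in WT cells (3 at an unadjusted p under 0.05, limma). Snhg11, Rian and Meg3 were at background in every group.

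Of 34 measured genes of proteins that bind and process snoRNAs, 5 passed in KO cells (14.7%, against 20.1% of all genes) and 7 in WT cells (20.6%, the same as over all genes). Of the box C/D core proteins Fbl, Nop56, Nop58 and Snu13, 0 of 4 passed in either genotype (limma, 0 at an unadjusted p under 0.05). Fibrillarin (Fbl) stood at 9.56, 9.45 and 9.23 in activated KO cells, against 9.47, 9.23 and 9.60 in native KO cells. Of 8 box C/D assembly factors, Ruvbl2, an ATPase of the assembly complex, rose by 0.82 ± 0.17 in KO and 0.81 ± 0.17 in WT cells. Its partner Ruvbl1 (0.59) and Pih1d1 (0.69) rose and Nufip1 (-0.44) fell in WT cells, with values of 0.50, 0.36 and -0.37 in KO cells that did not pass. Of 6 box H/ACA core and assembly proteins, Shq1, an assembly chaperone of dyskerin, fell by 0.59 ± 0.18 in KO cells, and Dkc1 itself differed by 0.46 in KO and 0.38 in WT cells without passing. Among 16 measured genes of debranching and end trimming, the exonuclease Xrn2 (-0.78 in KO and -0.85 in WT cells) and the poly(A) polymerase Tent4b (-0.48 and -0.49) fell and the exosome subunit Exosc8 (0.57 and 0.88) rose. The debranching enzyme Dbr1 differed by -0.50 and -0.51, which did not pass. For another class of small RNA on the array, 22 of 291 genes with a Mir symbol were lower and 5 higher in activated KO cells, and 30 and 6 in activated WT cells, with median differences of -0.03 and -0.04. These shares, 7.56% and 10.3% lower, stand beside 11.4% and 10.9% of all genes. Of the 291 genes 194 were at background in both KO groups and 180 in both WT groups, so most of the differences behind the medians are between rows without a signal above background.

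The second comparison asked whether the loss of Aire went with a difference in snoRNA genes. In activated cells 0 of 51 members were called between KO and WT cells, as were 0% of all genes (87 of 19938 genes, 4 of them members, had an unadjusted p under 0.05). The difference was negative for 47 of 51 members, with medians of -0.26 for box C/D and -0.17 for box H/ACA, against -0.01 over all genes. Snord73b, in Rps3a1, stood at 9.32, 9.11 and 8.31 in activated KO cells, against 9.87, 9.38 and 9.89 in activated WT cells (-0.80 ± 0.23). Snord49b stood at 9.97, 10.04 and 9.14, against 10.19, 10.16 and 10.48 (-0.56 ± 0.22), and Snord53 at 9.10, 9.12 and 8.85, against 9.34, 9.33 and 9.39 (-0.33 ± 0.14). These 3 members had all KO arrays below all WT arrays, as 0.888% of all genes had, while 0 members and 0.858% of all genes had them all above. None passed (adjusted p = 0.9999).

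The activated genotype difference varied with the array pair. By the number in the titles the median of KO minus WT over the box C/D members was -0.23, 0.16 and -0.73, and over the box H/ACA members -0.21, 0.26 and -0.57, for numbers 1, 2 and 3. The pair of number 3 holds the activated KO array whose background stood apart. The differences of the 7 CD8 T cell genes between activated KO and WT cells were all negative (median -0.28), and 0 of them passed (limma, 0 at an unadjusted p under 0.05). Cd3d, for example, stood at 10.79, 11.18 and 9.06 in activated KO cells, against 10.89, 11.12 and 10.88 in activated WT cells, the low value being that of array 3. The part of either in these values was not tested. Without that array the box C/D median was -0.11. Without activated WT array 2 the medians were -0.43 and -0.35.

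In native cells 0 of 51 members were called between KO and WT cells, and 0% of all genes (131 genes, and 0 members, at an unadjusted p under 0.05). Medians were 0.07 for box C/D and 0.04 for box H/ACA members, against -0.02 over all genes, and differences ran from -0.21 to 0.40. Snord118, at 6.84, 6.70 and 6.42 in native KO cells, against 6.53, 6.17 and 6.20 in native WT cells, had the smallest p of the box C/D members (0.35 ± 0.18, unadjusted p = 0.0792). Among box H/ACA members the largest difference was that of Snora70, in Rpl10 (0.25 ± 0.29). Neither native group lay wholly above or below the other for any of the 51 members, whereas 2.12% of all genes had all KO arrays above and 4.92% all KO arrays below the WT arrays.

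The activation difference was lower in KO than in WT cells for 46 of 51 members (41 of the 46 members whose difference was negative in both genotypes), and the test of that difference, the interaction of state and genotype, called 0 members and 0% of all genes (86 genes and 2 members at an unadjusted p under 0.05). Its median was -0.32 for box C/D and -0.19 for box H/ACA members, against 0.01 over all genes. The 2 members were Snord73b (-0.90 ± 0.33, unadjusted p = 0.0195) and Snord49b (-0.75 ± 0.31, unadjusted p = 0.0319), both with adjusted p = 0.9999. The 17 members called in KO cells only are thus not shown to differ between the genotypes.

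**Figure D5:**
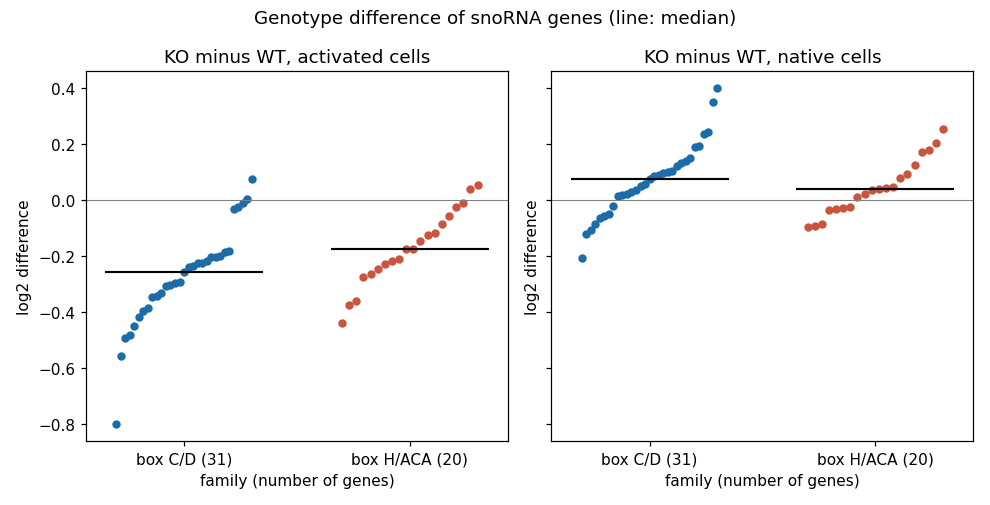
Points are log2 differences, KO minus WT, of each snoRNA gene in activated cells (left) and native cells (right), sorted within each family, with a line at the family median. Activated values lie mostly below 0 (medians -0.26 and -0.17) and native values on both sides of it (0.07 and 0.04); none passed an adjusted p of 0.05.

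Native arrays carry the experiment numbers 1, 3 and 5 in the descriptions and activated arrays 2, 4 and 6. Activation and experiment thus cannot be told apart array by array, although each state spans 3 experiments. With the experiment number as a random block in the fit (consensus correlation 0.0868), 43 members were lower in activated KO cells and 25 in activated WT cells. Of all genes 2283 and 2185 were lower in that fit (2263 and 2170 without the block).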

How the data were processed

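The authors' deposited table holds 35556 log2 expression values for each of 12 arrays, which the submitters' processing notes tie to the program Partek and the method RMA, without versions or options. RMA compresses differences near background, and an alignment of arrays would hide a shift of most transcripts. RNA was extracted with Trizol, cleaned on RNeasy columns and labelled as sense DNA, per the labels' protocols. Whether the probes of a snoRNA read the mature RNA or the host's unspliced transcript was not tested.

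The platform annotation gave the names (21789 rows with 1 symbol, 1621 with several, 12146 with none), and symbols were brought up to the RefSeq mouse gene table of GRCm38.p6. The 51 members had 56 rows, and 5 members had 2, among them Snord58b and Snora30. Row numbers of the members otherwise run by chromosome. Those used for Snord58b and Snora30 lie apart from the numbers of their annotated chromosomes, 18 and 7. The hosts given for them, Rpl17 and Srcap, are those of the annotated genes and may not contain the measured rows. Whether the row used for each of the 5 lies at the gene's annotated place was not checked further. The host of a member was the shortest annotated gene containing it, whatever its strand, since the table gives none; the design had asked for the same strand. Group means of all 12 arrays were fitted by lmFit and plain eBayes of limma 3.58.1 (R 4.3.3) and adjusted by Benjamini-Hochberg over 19938 genes, with a threshold of 0.05. Errors are the fit's standard errors, and the 3 arrays of a group limit the precision. Log2 ratios were compared by exact permutation over arrays, without regard to the shared experiment numbers. The fit was tested on simulated data. The genes named were, per comparison and family, up to 5 called rises and 5 falls whose arrays did not overlap, otherwise the smallest p-values, up to 3 a direction, with members of Gas5 and Rpl13a, guides of ribosomal RNA cleavage, members with their measured hosts or beside another member of the same host, and up to 4 genes of each other list; Snord55 on activation, Snord57, Snord85, Snord87 and members listed for losing a call were named after their values were seen. Members and lists were chosen with earlier results of these data known. KO and WT arrays of the same state and replicate number share an experiment number. Correlations of their deviations were 0.58, 0.40 and 0.16 in native and 0.69, -0.02 and -0.01 in activated cells. Between arrays of different number they were -0.505 to 0.13 in native and -0.55 to 0.28 in activated cells. With 3 arrays a group these values cannot decide whether the arrays of either state are paired.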

Additional observations from a re-analysis of the deposited data

How the results depend on the processing

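Over 23 alternatives to the fit (scaling, filter on dim genes, shared spread, array weights, blocks, all rows, each array left out), 26 of the 42 KO calls and 19 of the 26 WT calls were kept under every one, and no call changed sign. Leaving out 1 array gave 17 to 24 box C/D and 16 to 20 box H/ACA calls in activated against native KO cells. In WT cells it gave 9 to 16 box C/D calls, the 9 without native WT array 2 (14 with all arrays), and 12 to 19 box H/ACA calls, the 19 without activated KO array 3 (12 with all arrays). All genes had 1455 and 3219 lower calls in these 2 fits, against 2170 with all arrays. With 1 array left out the WT box H/ACA median was -1.03 to -0.80, against -0.87, with -1.03 without activated WT array 1 and -1.02 without array 3. The KO box C/D median was then -1.045 to -0.74, against -0.96, with -0.74 without activated KO array 3. Array weights gave 20 box H/ACA calls in WT cells, where all genes had 3623 higher and 3986 lower calls (1937 and 2170 in the equal-weight fit). In KO cells they gave 33 lower members in place of 42. All genes then had 2127 higher and 1528 lower calls (1739 and 2263 in the equal-weight fit). The estimate of the weights stopped before it converged, so these counts are approximate. Without activated WT array 2 the activated KO minus WT median of box H/ACA was -0.35 (-0.17 with all arrays; range -0.35 to -0.0799), and that of the interaction -0.35 (-0.19 with all arrays; range -0.35 to -0.13). The causes of these moves were not tested. The native KO minus WT medians changed sign when 1 array was left out (lowest -0.01 for box C/D and -0.03 for box H/ACA). The replicate number as a block gave 45 lower members in KO cells and 29 lower and 1 higher in WT cells. Of all genes 2523 and 2397 were lower in that fit. It gave 0 calls between genotypes or for the interaction. The experiment number as a block also gave 0 calls between genotypes. Pairs of members and hosts with unequal change numbered 18 to 21 when arrays were left out (19 with all), and pairs in 1 host 5 to 6 (5 with all), settings added after the data were seen, as was the random block. Level over background limits Snord52, Snord61, Snord118, Snord73a, Snord38a and Snora41, whose rows lay at background in at least 1 group. Arrays centred on their median gave 44 lower members in KO and 24 in WT cells, where 2397 and 2160 of all genes were lower.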

Other observations

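Besides the members, 41 rows of the table carry a snoRNA symbol joined with other symbols, and they were left out of the comparisons since no single gene can be named. In a fit of all 35556 rows, 10 of 17 such rows with 14 different sets of symbols were lower in activated than in native KO cells and 9 of 17 in activated than in native WT cells, where 14% and 13.9% of all rows were lower. Their median differences were -0.70 and -0.76. The other 24 rows share 1 set of symbols of a repeated cluster. Of these, 0 were called in either genotype (limma, adjusted over all rows, and 0 at an unadjusted p under 0.05), with median differences of 1.61 in KO and 1.38 in WT cells. The symbols do not tell these rows apart, so they do not stand for 24 separate genes, and no rise is shown.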
